A study of Mus musculus with 3 samples.

Results

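The mitogen-activated protein (MAP) kinase cascade was followed through its transcripts in macrophages sorted from mouse lung during lipopolysaccharide (LPS) injury. Members were taken by gene symbol, as every gene listed under Mapk, Map2k, Map3k or Map4k with a digit or under Mapkapk, which gave 44 of the 12880 genes in the tables. They comprised 5 MAP4K genes, 15 MAP3K genes, 7 MAP2K genes, 10 MAPK genes, 3 MAPKAPK genes and 4 genes of scaffold or interacting proteins, and all 44 had a value in all 3 libraries. The libraries were made from LysM-GFP mice on a C57BL/6 background, 6 to 8 weeks old, in which the lysozyme M locus drives green fluorescence in myeloid cells, so the reporter marks neutrophils and monocytes as well as macrophages. Injury was by nebulized LPS from a 1 mg/ml solution, and lungs were taken at 0, 4 and 24 h to follow its acute and resolving phases. After 50 min of digestion at 37 degrees, cells positive for GFP, negative for Ly6g and positive for CD64, which the study calls resident macrophages, were collected. There was 1 library at each time. The treatment text is the same for all samples, so it is not known whether the mice at 0 h were untreated or were taken straight after nebulization, and the labels do not say how many animals each library holds.

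The cascade passes a signal from the cell surface through tiers of kinases, each phosphorylating the next, from MAP4K through MAP3K and MAP2K to a MAP kinase of the ERK, JNK or p38 class. In macrophages LPS starts it at Toll-like receptor 4, where TRAF6 activates the MAP3K TAK1 and the degradation of NF-kappaB p105 frees the MAP3K TPL2. The p38 kinases in turn activate MAPKAPK2 (MK2), which lets cytokine messengers such as that of TNF persist and be translated. These steps are changes of protein phosphorylation, and the values here are amounts of RNA.

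Depth was 24825976 recovered reads in the 0 h library, 20379236 in the 4 h library and 25135476 in the 24 h library. Levels are normalized read counts on 1 scale for the 3 libraries, and a ratio is that of the later library over the earlier, with a 95% interval (exact binomial, Clopper-Pearson) that covers counting error only. No ratio has a replicate check, no test was possible with 1 library per time, and higher and lower describe these libraries on this scale. Under scaling to library totals or centring on ribosomal proteins, whose shifts are given below, small ratios could turn in direction and some ratios short of 2-fold passed it. The 6 pan-macrophage genes checked (Fcgr1, Csf1r, Emr1, Cd68, Sfpi1 and Itgam) had reads at every time, with summed levels of 82958 at 0 h, 116177 at 4 h and 78096 at 24 h. They did not move alike at 4 h against 0 h, where 2 were at least 2-fold higher and 4 lay above 0. Itgam was 4.62-fold higher, from 7235 to 33421, and Fcgr1 2.92-fold higher, whereas Cd68 was 1.62-fold lower. Marker levels of cell types differed between libraries. All 9 classical monocyte markers were listed, 8 at least 2-fold higher at 4 h than at 0 h and 8 at 24 h than at 0 h, and they summed to 105499 at 0 h, 478499 at 4 h and 92069 at 24 h. Fn1 made up 87223 of the 0 h sum and was the 1 marker lower at 24 h than at 0 h, by 3.44-fold. The 11 alveolar macrophage markers, 9 of them at least 2-fold lower at 4 h than at 0 h, summed to 143182 at 0 h, 70193 at 4 h and 106816 at 24 h. The 11 of 12 neutrophil markers with a value summed to 5033, 39733 and 8141 at the same times, Ly6g itself having no value in the tables. The 5 epithelial markers summed to 12485 at 0 h, 12421 at 4 h and 12367 at 24 h, but they moved apart. Scgb1a1 stood at 3977 at 4 h, against 90.6 at 0 h (43.9-fold higher), whereas Epcam was 6.01-fold lower and Cdh1 3.07-fold lower. The 4 of 6 T cell markers with a value summed to 6585 at 0 h, 283 at 4 h and 4337 at 24 h, most of it Cd2. Cd2 stood at 6577 at 0 h, 231 at 4 h and 4283 at 24 h. Lck moved the other way, at 7.47, 26.7 and 22.2, and Cd3d and Cd3g had a value at 4 h and 24 h alone, so the sum follows Cd2. The 4 B cell markers summed to 38.3 at 0 h, where Cd79b alone had a value, 114 at 4 h and 282 at 24 h. The 3 NK cell markers summed to 14.9, 108 and 101 at the same times. Xist RNA, a mark of female cells, had 13705 reads in the 0 h library, 4 in the 4 h library and 1 in the 24 h library, and the Y-linked Ddx3y had 4, 3994 and 2357 in the same order, so the sex of the animals differed between the 0 h library and the other libraries. No marker with a value was at 0 in any of the 3 libraries. The column names of the tables also carry CD11b, which the sort described in the labels does not mention. The part that cell makeup or sex plays in the values below was not tested, and in bulk RNA a change in the mix of cells and a change in RNA per cell cannot be told apart.

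At 4 h against 0 h some upstream kinases were higher, others were lower, and ERK1 was lower. Map3k6, Map3k8, Map3k15 and Map4k4 were at least 2-fold higher among the members averaging 100 normalized counts or more, called well-read from here, and Mapk3, which encodes ERK1, was 3.07-fold lower. Map3k6 reached that mean (270) only through its 4 h library, at 659, with 58.8 at 0 h and 92.0 at 24 h. Its place among the well-read members, here and in the counts below, thus rests on the library where it is high. In all, 8 of 44 members were at least 2-fold higher, where 15.2% of the 12512 genes listed in both libraries were, and 3 of 44 were at least 2-fold lower, where 14.3% were. The share higher, 18.2%, is close to the background and is no result about the members. The median log2 ratio was 0.29 over the members and 0.00 over all genes, and 30 of 44 members lay above 0, against 50.1% of all genes. With library totals, which shift the median of all genes by -0.16, the members' median was 0.13 and 25 lay above 0. Centring on ribosomal proteins, a shift of 0.01, gave 0.30 and 31. Of the 37 well-read members, 4 were 2-fold higher (12.9% of 9904 genes), 1 was 2-fold lower (12.1%) and 26 lay above 0 (49.6%). Those 4 are 10.8% of the well-read members, below the background, and this share too is no result about the members. By the authors' deposited log2 fold changes 5 members were at 1 or more, where 8.86% of genes were, and 1 at -1 or less, where 9.02% were.

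At 24 h against 0 h most of these differences were small. None of the 37 well-read members was 2-fold higher, where 2.9% of genes with such a mean were, and 1, Map3k3, was 2-fold lower, where 7.52% were. Over all 44 members 4 were at least 2-fold higher (4.95% of 12481 genes) and 2 at least 2-fold lower (9.1%), and 18 of 44 members lay above 0 (49.8%). The 4 that were higher, Mapk11, Mapk12, Mapk13 and Map2k6, had between 7 and 102 reads in each library at these 2 times. When ratios were centred on 77 cytosolic ribosomal protein genes, a shift of -0.53 on the log2 scale for the median of all genes, the counts were 3 higher and 9 lower. The median log2 ratio was -0.16 over the members, and 0.01 with library totals, which shift the median of all genes by 0.17. Of the 37 well-read members 14 lay above 0, against 49.7% of genes with such a mean. By the authors' deposited log2 fold changes, which are shrunken toward 0, no member was past 1 in size, where 0.539% of genes were past it on the higher side and 2.14% on the lower side.

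At 24 h against 4 h the members were lower by their median in these libraries. Of 44, 9 were at least 2-fold lower, where 17.9% of 12684 genes were, and 1, Mapk3, was at least 2-fold higher, where 14.4% were. The share lower, 20.5%, is close to the background and is no result about the members. Only 9 of 44 members lay above 0, against 50.1% of all genes, and the median log2 ratio was -0.57 over the members and 0.00 over all genes. Scaling to library totals, which shifts the median of all genes by 0.32, gave 3 higher, 6 lower, 17 above 0 and a median of -0.25, and centring on ribosomal proteins, a shift of -0.54, gave 0 higher and 26 lower. This comparison shares its 4 h library with the comparison against 0 h, so the 2 sets of ratios are not independent. Among the 37 well-read members 1 was 2-fold higher (12.1% of genes), 8 were 2-fold lower (16.3%) and 7 lay above 0 (49.7%). In the authors' deposited table, which lists 42 members, 1 was at a log2 fold change of 1 or more (7.26%) and 6 at -1 or less (10.2%).

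**Figure D1:**
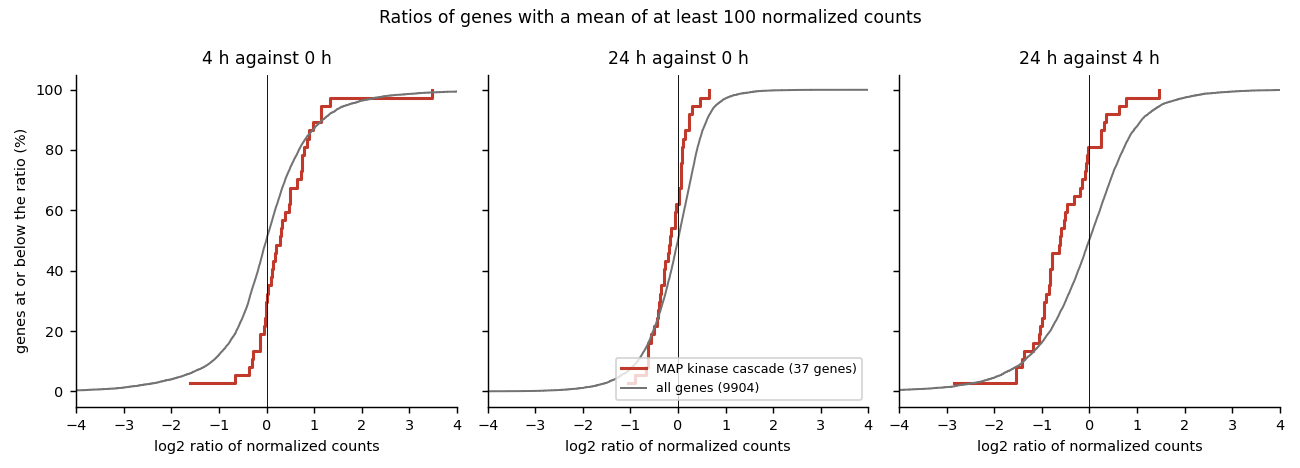
Cumulative share of genes (y axis, %) by log2 ratio of normalized counts (x axis) in the 3 comparisons, for the 37 members (red) and all 9904 genes (grey) averaging 100 normalized counts or more. The members' curve lies to the right of that of all genes through the middle of the range at 4 h against 0 h and to its left at 24 h against 4 h, with member medians of 0.28 and -0.62.

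Among the 37 well-read members, 26 (70.3%) had their highest level of the 3 libraries at 4 h, where 40.6% of all genes with such a mean did, and 20 (54.1%) had their lowest at 24 h, where 32.1% did. The highest level fell on the 0 h library for 7 members (27.9% of genes) and on the 24 h library for 4 (31.5%). The lowest was at 0 h for 10 (27.3%) and at 4 h for 7 (40.7%). Transcript length moved with the ratios. Over 8889 genes with a mean of at least 100 and an exon length, Spearman's rho between exon length and log2 ratio was 0.22 for 4 h over 0 h, -0.48 for 24 h over 0 h and -0.49 for 24 h over 4 h. Over the 37 members it was 0.44, -0.17 and -0.44 in the same order. The members were longer, with a median of 4.23 kb of exon against 3.39 kb for all genes. At 24 h against 4 h the median log2 ratio was -0.44 over all genes longer than 3.39 kb and -0.88 over members longer than 4.23 kb. Each set was cut at its own median length, so these values do not compare genes of equal length. All these genes share their libraries and depth, and the part of length in the members' ratios was not tested.

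**Figure D2:**
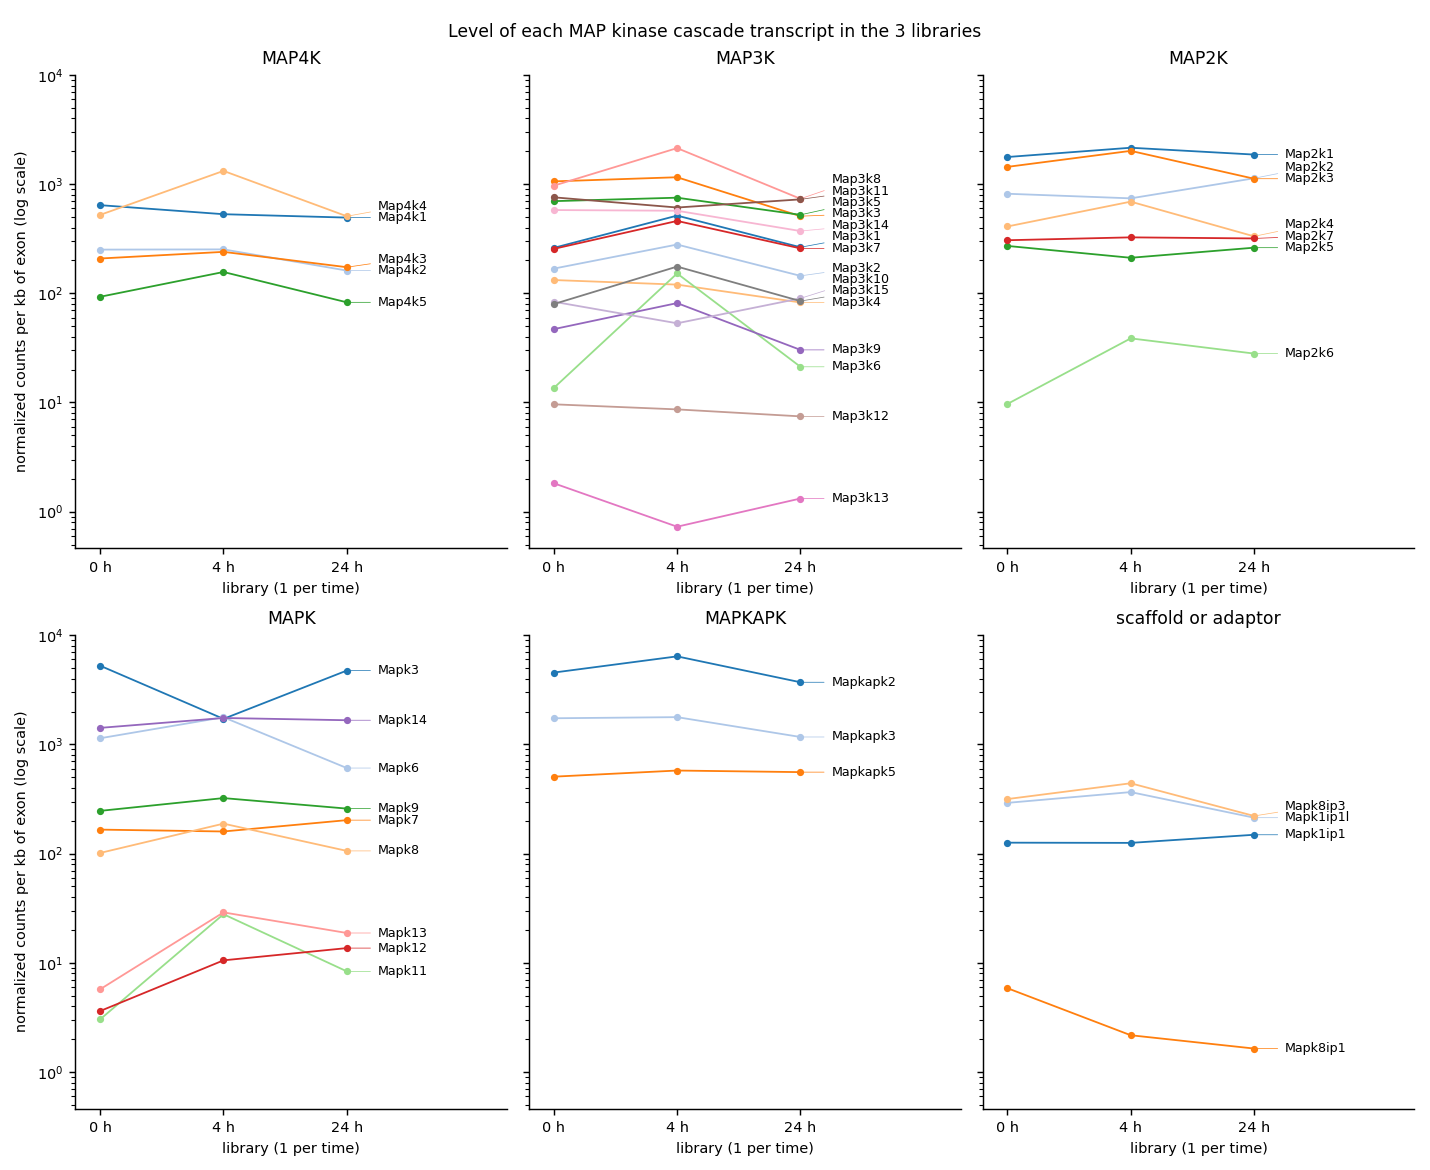
Level of 43 members in the 3 libraries, as normalized counts per kilobase of exon (y axis, log scale), by tier; points are single libraries joined in time order. Map3k6 and Map4k4 peak at 4 h, Mapk3 dips there, and Mapk11, Mapk12 and Mapk13 stay far below Mapk14.

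Of the 5 MAP4K genes, kinases that link surface receptors to the JNK branch, 1 was past 2-fold at 4 h. Map4k4, which encodes HGK, a kinase acting from TNF receptors toward JNK, had a normalized count of 3177 at 0 h, 8034 at 4 h and 3086 at 24 h. It was 2.53-fold higher at 4 h than at 0 h (2.43 to 2.64) and 2.60-fold lower at 24 h than at 4 h (2.50 to 2.71). The 0 h and 24 h libraries lay within 1.03-fold of each other on this scale, with 4 h above both. Their log2 ratio, 24 h over 0 h, was -0.04, but 0.12 with library totals and -0.57 after centring on ribosomal proteins, so its direction depends on the scaling. Map4k1 (HPK1, a kinase of blood cells that restrains antigen receptor signalling) stood at 1886 at 0 h, 1559 at 4 h and 1451 at 24 h, short of 2-fold in each comparison. The others, Map4k2, Map4k3 and Map4k5, ranged in log2 ratio from 0.01 to 0.75 for 4 h over 0 h and from -0.92 to -0.47 for 24 h over 4 h.

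In the MAP3K tier the widest ratio of all members belonged to Map3k6. It encodes ASK2, a stress kinase that works in a complex with ASK1. Map3k6 (chromosome 4, 133237979 to 133252929, plus strand, RefSeq annotation of GRCm38) had a normalized count of 58.8 at 0 h, 659 at 4 h and 92.0 at 24 h. It was 11.2-fold higher at 4 h than at 0 h (8.61 to 14.8) and 7.16-fold lower at 24 h than at 4 h (5.83 to 8.86), on 63, 519 and 112 reads. The 24 h library was still 1.56-fold above 0 h (1.14 to 2.17). In the authors' deposited table its p-value was 0.0108 for 4 h over 0 h and 0.0252 for 24 h over 4 h. Map3k6 was the 1 member below 0.05 in each, where 5.16% and 4.44% of all genes were. After Benjamini-Hochberg adjustment over all genes no gene passed 0.05 in the authors' deposited DESeq2 tables, with lowest adjusted values of 0.592 and 0.998, and at 24 h against 0 h 0 members had a p-value below 0.05, where 3.16% of genes did. Those fits had no replicates.

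The other ASK kinases had smaller ratios. Map3k15, which encodes ASK3, a kinase of the osmotic stress response, stood at 346 at 0 h, 764 at 4 h and 369 at 24 h, 2.21-fold higher at 4 h than at 0 h (1.93 to 2.52) and 2.07-fold lower at 24 h than at 4 h (1.83 to 2.35). Its gene lies on the X chromosome, and 603 of its 4348 exon bases overlap exons of Pdha1 on the other strand. Strand use in the authors' counting is not stated, and reads of the overlap cannot be assigned to either gene. With scaling to library totals its log2 ratios were 0.98 and -0.73, short of 2-fold in both. Map3k5, which encodes ASK1, activated when thioredoxin is oxidized, stood at 3806 at 0 h, 4095 at 4 h and 2852 at 24 h. Its log2 ratio at 4 h against 0 h was 0.11, and -0.05 with library totals, so its direction depends on the scaling. Per kilobase of exon, Map3k5 made up 88.2% of the 3 ASK transcripts at 0 h (87.1 to 89.2), 69.6% at 4 h (68.2 to 71.1) and 83.1% at 24 h (81.9 to 84.4). Map3k6 held 1.71% at 0 h, 14.1% at 4 h and 3.37% at 24 h.

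The promoter of Map3k6 is shown because the gene had the widest ratio, that of Map2k6 because it holds 1 of the motifs searched and the gene was 3.99-fold higher at 4 h, and that of Map3k7 because it holds a match to the NF-kappaB consensus. Each runs from 250 bases before to 50 after the transcript start in RefSeq (GRCm38.p6), at the start nearest to that in the authors' tables, 5′ to 3′ on the plus strand, on which all 3 genes lie, with capitals marking motif matches.
Map3k6 chr4:133240568-133240867: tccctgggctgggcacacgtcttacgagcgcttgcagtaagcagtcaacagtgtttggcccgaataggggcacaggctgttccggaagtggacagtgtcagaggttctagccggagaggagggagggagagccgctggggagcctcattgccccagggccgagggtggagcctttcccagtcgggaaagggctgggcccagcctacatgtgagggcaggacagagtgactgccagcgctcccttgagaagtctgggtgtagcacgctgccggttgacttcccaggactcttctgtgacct
Map2k6 chr11:110398852-110399151: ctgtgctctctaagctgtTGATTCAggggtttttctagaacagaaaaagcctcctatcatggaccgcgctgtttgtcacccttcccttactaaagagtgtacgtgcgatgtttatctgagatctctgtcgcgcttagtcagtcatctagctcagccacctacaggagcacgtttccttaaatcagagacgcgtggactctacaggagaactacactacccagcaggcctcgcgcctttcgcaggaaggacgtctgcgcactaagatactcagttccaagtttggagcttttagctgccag
Map3k7 chr4:31963857-31964156: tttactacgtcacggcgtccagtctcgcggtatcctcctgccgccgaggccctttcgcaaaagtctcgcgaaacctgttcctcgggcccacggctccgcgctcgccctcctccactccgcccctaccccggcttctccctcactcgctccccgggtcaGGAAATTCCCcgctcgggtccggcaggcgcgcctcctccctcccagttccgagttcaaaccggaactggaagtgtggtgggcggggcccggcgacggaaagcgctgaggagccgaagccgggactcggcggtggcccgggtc

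Of the 44 members, 36 had an entry in the promoter table. Both strands were searched for the NF-kappaB consensus, for AP-1 (TGANTCA), for the cyclic AMP response element (TGACGTCA) and for the interferon-stimulated response element (GAAA, 2 bases of any kind, GAAA), motifs that do not contain one another. The NF-kappaB consensus occurred in 5 of 36 member genes, Map3k7, Map4k1, Map4k2, Mapk1ip1l and Mapk7, and in 9.55% of all 27025 genes with an entry. AP-1 occurred in 3 members (Map2k6, Map2k7 and Map3k10) and 8.97% of all genes, the interferon element in 2 members (Mapk14 and Mapkapk3) and 3.99%, and the cyclic AMP element in 0 members and 2.03%. Map3k6 held none of these letters in its window, which lies inside the gene span given above, and the start at the 5′ end of that span was not searched. The Map3k7 window and its match also lie inside the gene span, which begins at 31963492 on the plus strand, and not upstream of it. The 5 genes with the NF-kappaB letters did not share a pattern, since Map3k7 was 1.80-fold higher at 4 h than at 0 h (1.69 to 1.93) while Map4k2 stood at 1173 at 4 h and 1167 at 0 h. These are matches of letters and not sites of binding.

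The MAP3K genes named above in the LPS signal, Map3k8 and Map3k7, were higher at 4 h, Map3k8 past 2-fold and Map3k7 not. Map3k8, which encodes TPL2, the kinase upstream of MEK and ERK in LPS-treated macrophages, stood at 2487 at 0 h, 5491 at 4 h and 1887 at 24 h. It was 2.21-fold higher at 4 h than at 0 h (2.10 to 2.32) and 2.91-fold lower at 24 h than at 4 h (2.77 to 3.06). With library totals its log2 ratio at 4 h against 0 h was 0.98, short of 2-fold. Map3k7, which encodes TAK1, stood at 1474 at 0 h, 2657 at 4 h and 1489 at 24 h. Set against 4 h, the 24 h library gave a log2 ratio of -0.84, short of 2-fold, and -1.37, past it, after centring on ribosomal proteins. For Map3k8 the 24 h library was the lowest of the 3, and for Map3k7 the ratio of 24 h over 0 h was 1.01 (0.944 to 1.08), with a log2 ratio of 0.18 with library totals and -0.51 after centring on ribosomal proteins.

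The MEKK kinases, MAP3Ks that can feed the JNK, p38 or ERK5 branch, differed among themselves. Map3k1, which encodes MEKK1, both a kinase and a ubiquitin ligase, stood at 1819 at 0 h, 3594 at 4 h and 1843 at 24 h, 1.98-fold higher at 4 h than at 0 h (1.86 to 2.09). Map3k2 (MEKK2) stood at 1799 at 0 h, 2989 at 4 h and 1544 at 24 h. Map3k3, which encodes MEKK3, acting in both the ERK5 branch and NF-kappaB signalling, followed another course. It stood at 3657 at 0 h, 3990 at 4 h and 1755 at 24 h, 2.08-fold lower at 24 h than at 0 h (1.98 to 2.20) and 2.27-fold lower than at 4 h (2.15 to 2.40). Here the 24 h library stands below the other libraries, whose values were within 1.09-fold. With library totals the log2 ratios were -0.89 against 0 h and -0.86 against 4 h, short of 2-fold. Per kilobase of exon, Map3k3 made up 65.4% of the 4 MEKK transcripts at 0 h (64.4 to 66.3), 55.8% at 4 h (54.7 to 56.9) and 50.9% at 24 h (49.6 to 52.2), and their sum was 1621 at 0 h, 2071 at 4 h and 1000 at 24 h.

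The remaining 7 MAP3K genes followed no common course. Map3k14, which encodes NIK, the kinase of the non-canonical NF-kappaB pathway, stood at 2459 at 0 h, 2422 at 4 h and 1579 at 24 h. Map3k9 (MLK1, a mixed-lineage kinase of the JNK branch) stood at 218 at 0 h, 377 at 4 h and 141 at 24 h, 2.68-fold lower at 24 h than at 4 h (2.22 to 3.26). The other mixed-lineage kinases lay on the other side at 4 h against 0 h, with log2 ratios of -0.31 for Map3k11 (MLK3) and -0.66 for Map3k10 (MLK2). Exons of Map3k10 overlap those of Ttc9b on the other strand over 612 of 3893 bases. Map3k4 (MEKK4, which GADD45 proteins switch on) stood at 720 at 0 h, 654 at 4 h and 449 at 24 h. Map3k12 and Map3k13 (DLK and LZK, best known from neurons) had between 5 and 59 reads in each library, and 1573 of 5725 exon bases of Map3k12 overlap exons of Pcbp2 on the other strand. Map3k13 was 2.50-fold lower at 4 h than at 0 h on 5 and 17 reads, with an interval from 0.886-fold to 8.67-fold that does not fix a direction.

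**Figure D3:**
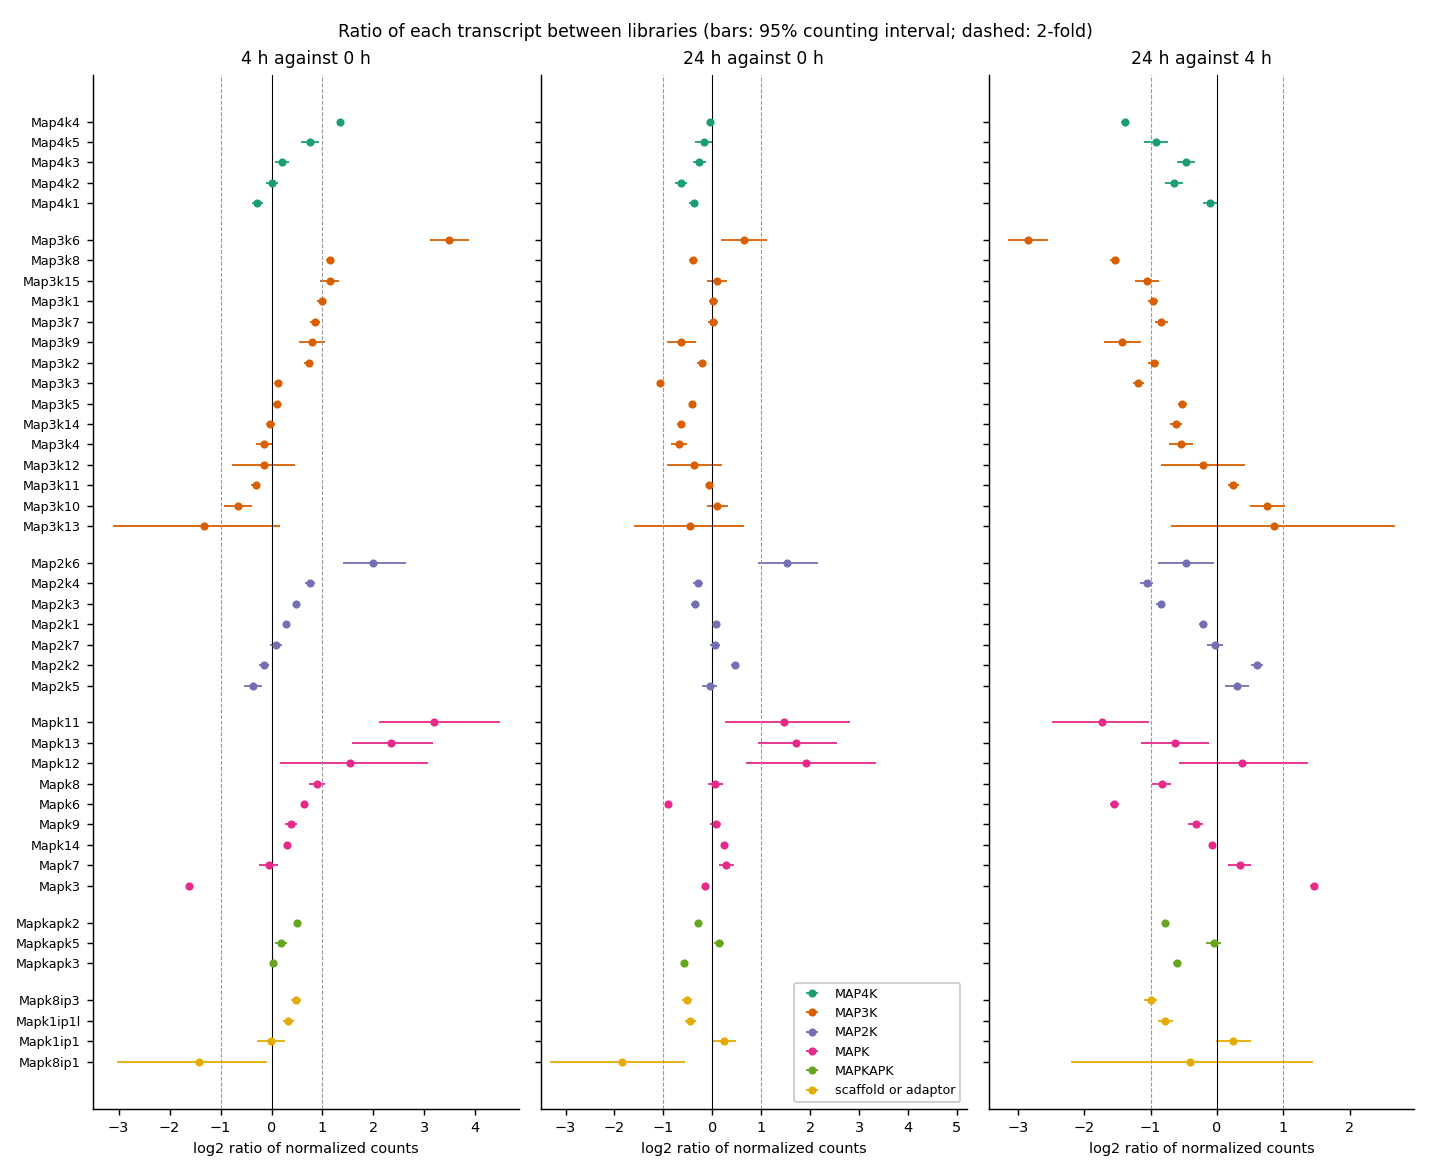
Log2 ratio of normalized counts (x axis) of 43 members in the 3 comparisons, ordered by tier and by the ratio at 4 h against 0 h; bars are 95% counting intervals, with no replicate error, and dashed lines mark 2-fold. Map3k6 has the highest ratio at 4 h against 0 h (3.49) and Mapk3 the lowest (-1.62), and the wide bars belong to members with few reads.

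In the MAP2K tier the forms with many reads were within 2-fold of 0 h and 1 rare form was several-fold higher. Map2k1 and Map2k2 encode MEK1 and MEK2, the kinases of the ERK branch. Map2k1 stood at 4315 at 0 h, 5249 at 4 h and 4544 at 24 h. Map2k2 stood at 1964 at 0 h, 1782 at 4 h and 2722 at 24 h. Per kilobase of exon, Map2k1 made up 68.4% of the pair at 0 h (67.3 to 69.6), 74.4% at 4 h (73.2 to 75.6) and 62.2% at 24 h (61.2 to 63.3), so the share of MEK2 was largest at 24 h.

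Map2k4 and Map2k7 encode MKK4 and MKK7, the kinases that activate JNK. Map2k4 stood at 1513 at 0 h, 2554 at 4 h and 1228 at 24 h, 2.08-fold lower at 24 h than at 4 h (1.94 to 2.22), and with library totals short of 2-fold at a log2 ratio of -0.73. Map2k7 stood at 1155 at 0 h, 1227 at 4 h and 1200 at 24 h. Its 3 libraries lay within counting error on this scale. Its log2 ratio at 24 h against 4 h was -0.03, but 0.29 with library totals and -0.57 after centring on ribosomal proteins, so no direction is given. Map2k3, which encodes MKK3, the activator of p38 with the higher level here per kilobase, stood at 3163 at 0 h, 4434 at 4 h and 2464 at 24 h. Map2k6, which encodes MKK6, the other activator of p38, stood at 28.9 at 0 h, 116 at 4 h and 83.8 at 24 h, on 31, 91 and 102 reads. It was 3.99-fold higher at 4 h than at 0 h (2.63 to 6.21) and 2.90-fold higher at 24 h than at 0 h (1.92 to 4.48). Per kilobase of exon, Map2k6 held 0.669% of the MKK3 and MKK6 transcripts at 0 h, 1.88% at 4 h and 2.44% at 24 h (1.99 to 2.96), and 3.46% at 24 h when the longest transcript gave the length, an alternative chosen after seeing the data. Map2k5 (MEK5, the activator of ERK5) stood at 628 at 0 h, 489 at 4 h and 605 at 24 h.

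At the level of the MAP kinases themselves, the widest ratio on well-read genes was that of ERK1, a kinase at the end of the Raf and MEK branch. Mapk3 (ERK1; chromosome 7, 126759626 to 126765816, plus strand) had a normalized count of 10585 at 0 h, 3451 at 4 h and 9562 at 24 h. It was 3.07-fold lower at 4 h than at 0 h (2.94 to 3.20) and 2.77-fold higher at 24 h than at 4 h (2.66 to 2.89). Set against 0 h, the 24 h library gave a log2 ratio of -0.15, 0.02 with library totals and -0.67 after centring on ribosomal proteins, so its direction depends on the scaling. The 4 h library stood alone here, and the ratio kept its side of 2-fold at 4 h against 0 h under all 5 alternatives tried. At 24 h against 4 h its log2 ratio was 0.93 after centring on ribosomal proteins, below 2-fold.

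**Figure D4:**
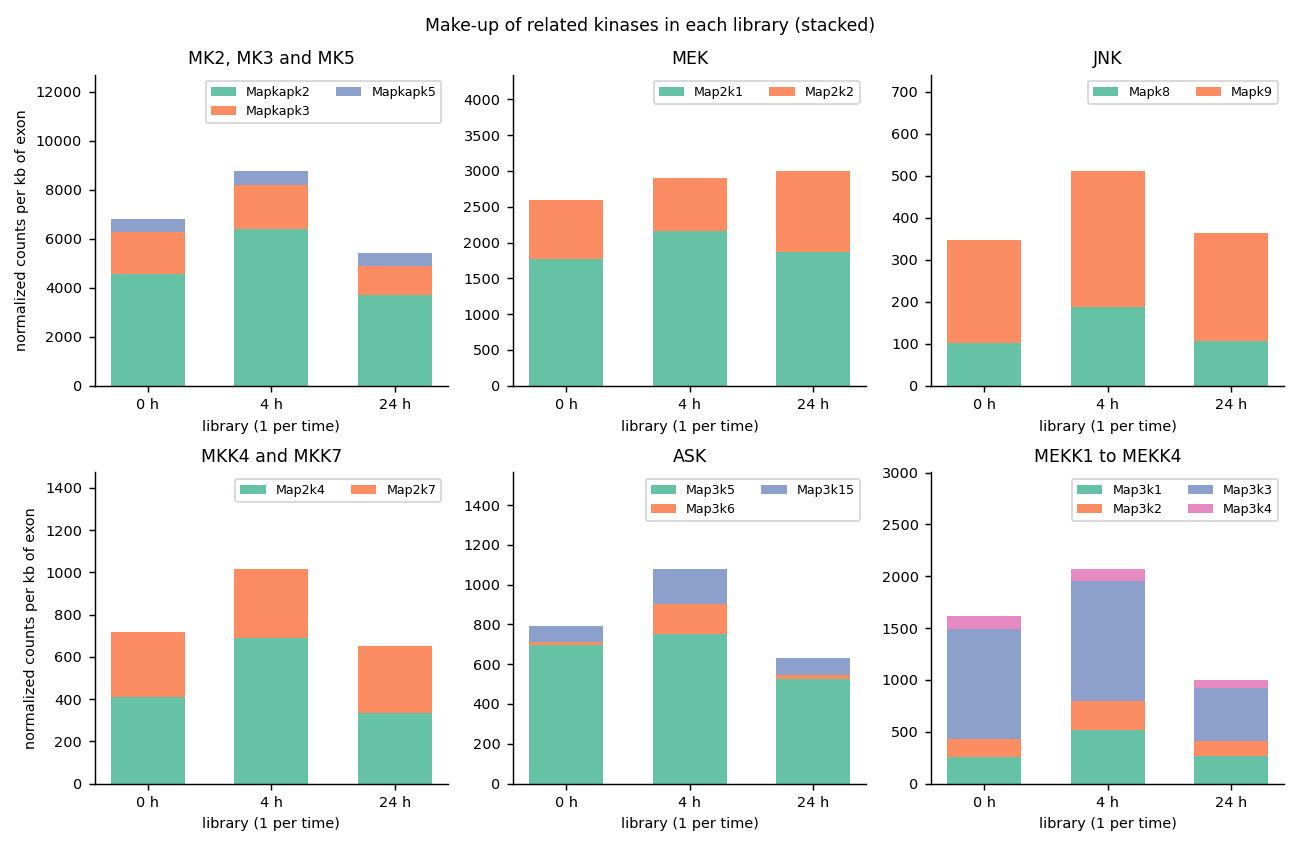
Stacked levels of related kinases in each library, as normalized counts per kilobase of exon (y axis, from 0, a separate scale in each panel). The MEKK panel shows the sum at 1621 at 0 h, 2071 at 4 h and 1000 at 24 h. The ASK panel shows Map3k6 at 14.1% of its family at 4 h.

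The JNK kinases were higher at 4 h, by less than 2-fold. Mapk8 (JNK1) stood at 591 at 0 h, 1097 at 4 h and 617 at 24 h, 1.86-fold higher at 4 h than at 0 h (1.67 to 2.06). Mapk9 (JNK2) stood at 1171 at 0 h, 1533 at 4 h and 1228 at 24 h. Mapk8 made up 29.2% of the pair per kilobase at 0 h (27.2 to 31.2), 36.8% at 4 h (34.8 to 38.9) and 29.1% at 24 h (27.3 to 30.9).

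Among the p38 kinases, Mapk14 (p38 alpha) was nearly all of the RNA. It stood at 5966 at 0 h, 7350 at 4 h and 7008 at 24 h. It made up 99.1%, 96.3% and 97.6% of the 4 p38 transcripts per kilobase at those times. The other p38 genes were higher in both later libraries, on few reads. Mapk11 (p38 beta) had 8 reads in the 0 h library, 54 in the 4 h library and 25 in the 24 h library, a 9.18-fold higher level at 4 h than at 0 h (4.34 to 22.3). With a pseudocount of 10 that log2 ratio was 2.17, in place of 3.20. At 24 h it was 2.75-fold higher than at 0 h (1.20 to 7.05), with a log2 ratio of 0.93 after centring on ribosomal proteins and 0.81 with a pseudocount of 10, and 3.34-fold lower than at 4 h (2.04 to 5.60). Mapk13 (p38 delta, a form found in neutrophils as well as macrophages) had 18, 67 and 67 reads at 0, 4 and 24 h, 5.06-fold higher at 4 h than at 0 h (2.97 to 9.05) and 3.28-fold higher at 24 h than at 0 h (1.92 to 5.86). Mapk12 (p38 gamma) had 7, 15 and 30 reads at 0, 4 and 24 h, 2.91-fold higher at 4 h than at 0 h (1.12 to 8.44) and 3.77-fold higher at 24 h than at 0 h (1.62 to 10.2). Mapk11 and Mapk12 lie 0.904 kb apart on chromosome 15, and Mapk13 lies 20.9 kb from Mapk14 on chromosome 17, so each rare form has a p38 gene as its neighbour. The summed neutrophil markers were also higher at 4 h, as given above, and their part in these few reads was not tested.

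Mapk6, which encodes the atypical kinase ERK3, stood at 4821 at 0 h, 7507 at 4 h and 2572 at 24 h. It was 2.92-fold lower at 24 h than at 4 h (2.79 to 3.05) and 1.87-fold lower than at 0 h (1.79 to 1.96), so its lowest library was that of 24 h. Mapk7 (ERK5) stood at 561 at 0 h, 539 at 4 h and 685 at 24 h, with no ratio past 1.27-fold.

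The MAPKAPK kinases, which p38 or ERK3 activate, were short of 2-fold in each comparison on this scale. After centring on ribosomal proteins Mapkapk3 passed it at 24 h against 0 h (log2 ratio -1.10), and Mapkapk2 (-1.33) and Mapkapk3 (-1.14) passed it at 24 h against 4 h. Mapkapk2 (MK2) stood at 12991 at 0 h, 18285 at 4 h and 10591 at 24 h, 1.41-fold higher at 4 h than at 0 h (1.38 to 1.44) and 1.73-fold lower at 24 h than at 4 h (1.69 to 1.77). Mapkapk3 (MK3, its close relative) stood at 4891 at 0 h, 5008 at 4 h and 3295 at 24 h. Mapkapk5 (MK5, a partner of ERK3) stood at 1132 at 0 h, 1288 at 4 h and 1246 at 24 h. Of its exon bases, 1805 of 2234 overlap exons of Adam1a on the same strand. Per kilobase, MK2 made up 67.0% of the 3 transcripts at 0 h (66.3 to 67.6), 73.1% at 4 h (72.5 to 73.8) and 68.2% at 24 h (67.5 to 68.9). The order MK2 over MK3 over MK5 was the same at each time.

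Of the 4 scaffold or interacting proteins, Mapk8ip3 (JIP3, a carrier of JNK cargo on microtubules) stood at 1774 at 0 h, 2475 at 4 h and 1242 at 24 h, 1.99-fold lower at 24 h than at 4 h (1.86 to 2.13). Mapk1ip1l stood at 1362 at 0 h, 1709 at 4 h and 996 at 24 h. Mapk1ip1 stood at 237 at 0 h, 236 at 4 h and 280 at 24 h. Mapk8ip1 (JIP1, a scaffold of the JNK branch) had 22 reads in the 0 h library, 6 in the 4 h library and 7 in the 24 h library. It was 2.70-fold lower at 4 h than at 0 h (1.06 to 8.13) and 3.57-fold lower at 24 h than at 0 h (1.47 to 9.90).

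Other genes of the pathway, in 7 lists matched for 94 of 98 genes, lay on both sides of 0 at 4 h against 0 h. Of 22 genes of Ras and Raf input, 6 were at least 2-fold higher and 1 lower (median log2 ratio 0.46), beside 15.2% and 14.3% of all genes. Rasgrp1, an exchange factor that loads Ras, stood at 481 at 0 h, 2300 at 4 h and 834 at 24 h. Braf, a MAP3K of the ERK branch, stood at 960 at 0 h, 3369 at 4 h and 718 at 24 h. Rras2, a Ras relative, was 4.91-fold lower at 4 h than at 0 h (4.26 to 5.68). Of 11 partners of TAK1, TPL2 and ASK1, 3 were higher and 0 lower (median 0.41). These were Traf6, Tab2 and Nfkb1, which encodes the p105 that holds TPL2, at 14587 at 4 h and 7025 at 0 h. Of 9 kinases of the cascade under other names 2 were higher and 1 lower (median 0.32). Taok1, a MAP3K of the p38 branch, was 2.68-fold higher (2.55 to 2.80) and Stk3 2.17-fold higher (1.94 to 2.44), and Mink1, a MAP4K close to Map4k4, was 2.42-fold lower (2.32 to 2.54).

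Brakes and downstream kinases each held genes on both sides of 0, where 15.2% of all genes were past 2-fold upward and 14.3% past it downward at 4 h against 0 h. Of 17 Ras and MAP kinase brakes 6 were at least 2-fold higher at 4 h than at 0 h, 1 was lower and 11 lay above 0 (median 0.24). Spred1, an inhibitor of Ras and Raf signalling, stood at 515 at 0 h, 2267 at 4 h and 477 at 24 h. Spry2, a related inhibitor, was 5.26-fold higher at 4 h than at 0 h (2.94 to 9.99) at low levels of 73.6 at 4 h and 14.0 at 0 h. Spry1 stood at 286 at 0 h, 54.6 at 4 h and 212 at 24 h. Of 7 kinases that MAP kinases switch on 0 were higher and 2 lower (median -0.21), Rps6ka5 (MSK1) by 2.22-fold (1.93 to 2.57) and Rps6ka2 (RSK3) by 2.12-fold (1.87 to 2.40). Of 13 scaffolds outside the naming rule 1 was higher and 1 lower (median -0.26), with Gadd45a, an activator of MEKK4, 3.52-fold higher (3.17 to 3.91) and Lamtor2, part of a MEK1 anchor on lysosomes, at 858 at 4 h and 1718 at 0 h. Of 15 transcription factors listed as substrates 2 were higher and 1 lower (median 0.59), the higher ones being Creb1 and Mef2c and the lower one Mxi1. Whether a MAP kinase itself phosphorylates each gene product on this list, Creb1 and Mxi1 among them, was not checked.

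At 24 h against 0 h none of the 94 genes in these lists was 2-fold higher, beside 4.95% of all genes, and 13 were 2-fold lower, beside 9.1%. At the extreme were the substrates Atf7 and Elk4, which stood at 49.3 and 210 at 24 h, against 342 and 814 at 0 h, 6.93-fold (5.26 to 9.27) and 3.87-fold (3.36 to 4.47) lower. Ksr1, a scaffold of Raf and MEK, was 2.64-fold lower (2.09 to 3.36), Spred2, a brake, 2.94-fold lower (2.35 to 3.71) and Gadd45b 2.62-fold lower (2.51 to 2.73). At 24 h against 4 h the lower members of the lists numbered 6 of 22 for Ras and Raf input, 3 of 9 for the other kinases, 3 of 11 for the partners, 3 of 13 for scaffolds, 1 of 7 for downstream kinases, 7 of 17 for brakes and 5 of 15 for substrates, beside 17.9% of all genes. Those at least 2-fold higher, beside 14.4% of all genes, were Rras, Rras2, Txn1, Lamtor2, Spry1 and Mxi1. Braf was 4.69-fold lower at 24 h than at 4 h (4.34 to 5.07), Traf6 3.37-fold (3.12 to 3.64), Gadd45b 5.07-fold (4.88 to 5.27) and Atf7 9.24-fold (7.02 to 12.4). Like the members, these genes share the 4 h library between comparisons.

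**Figure D5:**
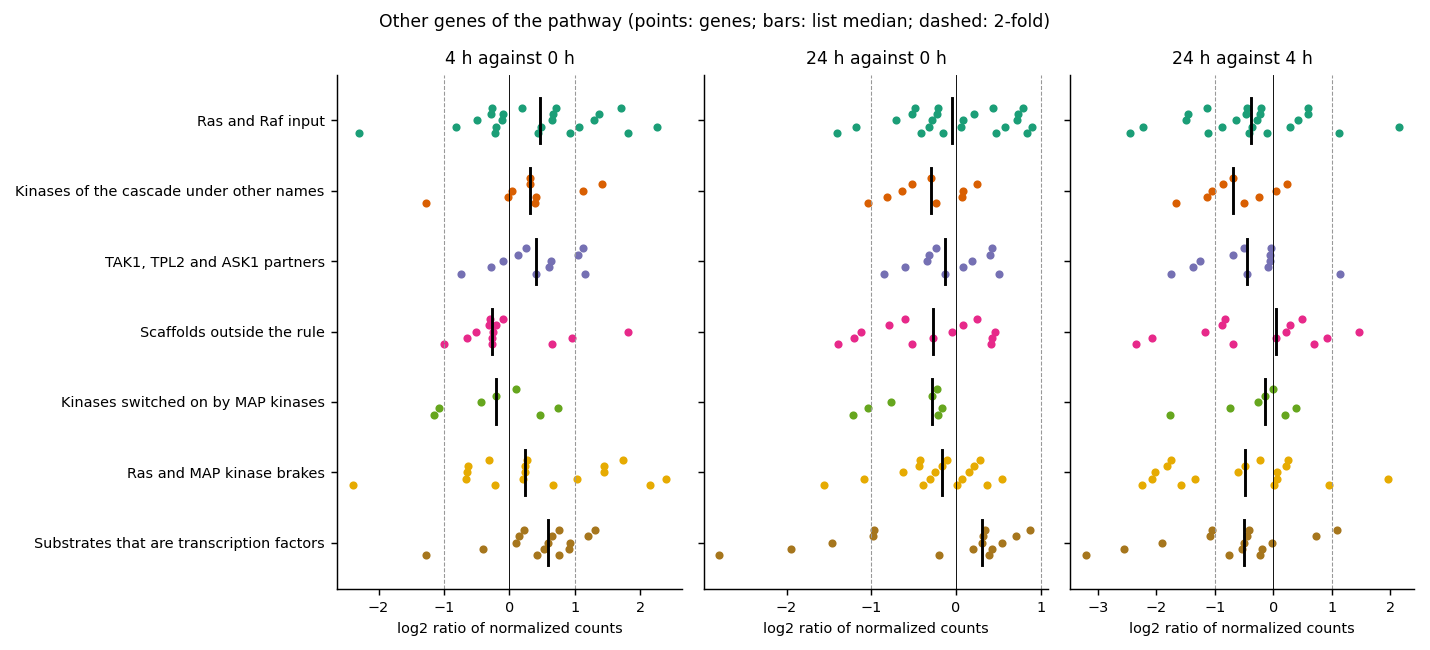
Log2 ratio of normalized counts (x axis) of the genes in 7 pathway lists, 1 point a gene, with the list median as a black bar and 2-fold as dashed lines. At 4 h against 0 h the median is highest for the transcription factor substrates (0.59) and lowest for the scaffolds (-0.26), and at 24 h against 0 h no point lies past 2-fold on the higher side.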

How the data were processed

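RNA sequencing of lung macrophages was analysed from 3 tables, each comparing 2 of 3 libraries at 0, 4 and 24 h, grouped by the time in the labels. Per the submitters' processing notes the authors used DESeq2 and mm10. For the aligner, the read counter, the annotation and strandedness the status is: not given in the sources used here. The deposited signal is read counts divided by a size factor of the table's pair. Every value in the columns used was a whole multiple of 1 read within 0.001 reads (100% of values), so whole reads were recovered, and no count test was run because 1 library per time leaves no residual degrees of freedom. The deposited log2 fold changes and unadjusted p-values come from the authors' DESeq2 fits, and those log2 fold changes are shrunken toward 0, so plain ratios were used here. LFC standard errors and test statistics, a kind of score in the deposited tables, were not used. In the table of 0 h and 24 h, 1 column headed 4 h and its copy, 2 columns in all, were given to no sample. The first served for a check alone: its reads equal those of 0 h in 12310 of 12310 genes. The 20 repeated rows of that table were dropped.

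Reads were put on 1 scale with size factors by the median of ratios, from 12451 genes (1.07 at 0 h, 0.788 at 4 h and 1.22 at 24 h). Intervals allow for counting error alone, and PCR copies without molecular identifiers are not separate molecules. The threshold was a 2-fold ratio. Exon lengths are those of GENCODE M21 protein-coding transcripts (GRCm38, the build called mm10), and shares per kilobase assume that the authors' gene models are similar. Members, the 7 pathway lists and the 8 marker lists were chosen with earlier results of these data known. Values in every library are given for the 24 canonical kinases and for every member averaging at least 100 normalized counts that is 2-fold apart in a comparison, 29 members in all, of which 1 is not reported here and is left out of the plots by member. The other members are described beside them, chosen after their values were seen. From the pathway lists the genes named are among the 2 furthest from 0 in each direction, of genes past 2-fold in a comparison. Not all such genes are named, and at 24 h against 4 h Ksr1 (log2 ratio -2.46) lay further than Braf. Nfkb1 was added after its values were seen. Ratios and intervals were tested on simulated data. Alternatives were library totals, TMM factors (edgeR 4.0.16), centring on ribosomal proteins, the authors' size factors, a pseudocount of 10 and other thresholds. Python 3.11.15, scipy 1.17.1 and R 4.3.3 were used.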

Additional observations from a re-analysis of the deposited data

How the results depend on the processing

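The counts of members past 2-fold at 4 h against 0 h were 8 higher and 3 lower, at 24 h against 0 h 4 and 2, and at 24 h against 4 h 1 and 9. Under the deposited, shrunken log2 fold changes of at least 1 they were 5 higher and 1 lower at 4 h against 0 h, and 0 and 0 at 24 h against 0 h. A threshold of 1.5-fold gave 16 higher at 4 h against 0 h, 7 lower at 24 h against 0 h, and 4 higher and 22 lower at 24 h against 4 h. Requiring a mean of 100 normalized counts left 4 higher and 1 lower at 4 h against 0 h and 0 higher and 1 lower at 24 h against 0 h. A pseudocount of 10 left 1 lower at 4 h against 0 h and 1 lower at 24 h against 0 h. Intervals wholly past 2-fold left 1 lower at 4 h against 0 h, and 0 higher and 0 lower at 24 h against 0 h. By construction, the mean and the pseudocount act on members with few reads. The interval also removes members near 2-fold with many reads, such as Map3k3. Library totals gave 1 lower at 24 h against 0 h and 3 higher at 24 h against 4 h. Centring on ribosomal proteins gave 9 lower at 24 h against 0 h, and 0 higher and 26 lower at 24 h against 4 h; it shifts all genes alike, and why ribosomal protein transcripts differ between libraries was not tested. The other counts stayed within 1.5 times.

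Of the 22 ratios past 2-fold among the 29 members given in full, all 22 stayed past it with TMM factors, 21 with the pseudocount, 20 after centring on ribosomal proteins and 16 with library totals, and 0 changed sign. The authors' size factors could not be applied at 24 h against 0 h, where a column was given to no sample. Depth limits Mapk11, Mapk12, Mapk13, Map2k6, Map3k12, Map3k13 and Mapk8ip1. No paired analysis was possible because each time has 1 library, and none could be left out for the same reason.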
